A study of Mus musculus with 2 samples.

Results

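The amino acid carriers described here are 9 membrane proteins of the solute carrier families: *Slc7a5*, *Slc3a2*, *Slc7a1*, *Slc38a5*, *Slc38a3*, *Slc38a2*, *Slc1a4*, *Slc1a5* and *Slc6a6*. They were taken by gene symbol, and all 9 had a row among the 22687 gene symbols of the P6 library and among the 21736 of the P15 library. The libraries hold retinal endothelial cells of wild-type C57BL/6 mice at postnatal day 6 (P6) and day 15 (P15), sorted as CD31+CD45- by flow cytometry and counted as unique molecular identifiers (UMIs) in a droplet assay. CD31 marks endothelium and CD45 marks blood leukocytes, and the mice carried no transgene or treatment. There was 1 library per age, and how many animals each one pooled is not given in the sources used here. A difference between P6 and P15 therefore cannot be told apart from a difference between the libraries, no test across samples was possible, and the intervals below, all at 95%, cover counting error only.

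The endothelium of the retina forms the inner blood-retina barrier, in which tight junctions seal the gaps between cells, so that amino acids reach the neurons through carriers in the endothelial membranes. *Slc7a5* encodes LAT1, an exchanger of large neutral amino acids such as leucine, and *Slc3a2* encodes CD98hc, the heavy chain that brings LAT1 to the cell surface. *Slc7a1* encodes CAT1, which carries arginine and lysine. *Slc38a2*, *Slc38a3* and *Slc38a5* encode SNAT2, SNAT3 and SNAT5, which carry small neutral amino acids with sodium, glutamine among them. *Slc1a4* and *Slc1a5* encode ASCT1 and ASCT2, exchangers of serine, alanine, cysteine and, for ASCT2, glutamine. *Slc6a6* encodes TauT, which brings in taurine, an amino acid abundant in the retina.

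Both libraries held endothelial cells by their markers. Passing cells, meaning those within the exclusion limits of the study, numbered 1424 at P6 and 1644 at P15, with a median of 4985 and 4214 UMIs, and at least 3 of 7 endothelial markers were found in 97.8% and 97.4% of them. Markers of other cells were higher at P15: the summed level of 7 pericyte markers was 13.1 CPM (UMIs scaled to 1000000 per library) at P6, where *Cspg4* was at 0, and 295 CPM at P15. The 9 photoreceptor and neural markers summed to 20.5 and 68.1 CPM, with *Neurod1* at 0 in both by selection, the glial markers to 373 and 1235 CPM (of which *Glul* alone gave 366 and 1161 CPM, in 59.8% and 83.0% of passing cells), the 5 red blood cell markers to 22.6 and 173 CPM, and the immune markers to 2.22 and 8.68 CPM. Of the other glial markers, *Rlbp1* stood at 1.31 and 63.6 CPM, in 0.702% and 17.2% of passing cells. The 8 immediate early genes, which respond to cell dissociation, summed to 835 and 3158 CPM. The libraries shared 7 cell barcodes. Cluster names of the study were used for 1560 P6 cells and for 438 of the 2141 P15 barcodes. These P15 cells came first in the list of names and are not known to be a random part, so every P15 level by cluster and every ratio within a cluster rests on a part of the P15 cells, and *Slc38a5* was one of the genes by which the study named its Venous and Cap-Venous clusters.

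Promoter sequence was read from RefSeq (GRCm38.p6), where 5 of the 9 carriers had an entry. The windows below run from 95 bases before to 5 bases after the start of the entry. They belong to the carriers with an entry that were furthest below 1 between P15 and P6 (*Slc1a4*, *Slc38a2*), to the heavy chain, and to *Slc38a5*. The *Slc3a2* and *Slc38a5* windows lie inside the gene spans given further on, so their starts are not the outermost ones of these spans. Capitals mark matches on either strand to TGATGNAA (C/EBP-ATF response element, found in 1.47% of 32851 promoter windows of this length), GGGCGG (GC box, 24.7%), CACGTG (E-box, 3.24%), TATAA (TATA box, 10.3%) or CTTTGA (TCF/LEF, 4.90%).
Slc1a4 (chr11:20332709-20332808, minus strand): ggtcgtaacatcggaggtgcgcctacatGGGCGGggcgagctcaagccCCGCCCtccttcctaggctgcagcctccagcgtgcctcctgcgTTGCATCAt
Slc38a2 (chr15:96699724-96699823, minus strand): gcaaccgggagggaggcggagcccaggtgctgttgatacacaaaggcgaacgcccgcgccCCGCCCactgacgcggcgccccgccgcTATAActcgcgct
Slc3a2 (chr19:8713893-8713992, minus strand): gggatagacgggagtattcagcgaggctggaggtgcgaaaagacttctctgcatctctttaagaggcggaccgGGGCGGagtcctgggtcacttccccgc
Slc38a5 (chrX:8271286-8271385, plus strand): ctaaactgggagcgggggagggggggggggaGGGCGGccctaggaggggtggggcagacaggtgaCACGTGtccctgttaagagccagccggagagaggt
Each of the 4 windows held a GC box. Of the *Slc7a1* windows, which are not printed, the one at chr5:148399900-148399999 held a GC box. The one at chr5:148392811-148392910 held TATA box and TCF/LEF letters and no GC box. The C/EBP-ATF letters, which the amino acid response factor ATF4 can bind, stood in the *Slc1a4* window across the start, on the strand opposite to the gene, and the E-box stood in the *Slc38a5* window. These matches are letters in a window and not measured sites.

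Between P6 and P15, the taurine carrier was higher in the older library and 3 carriers of small neutral amino acids were lower. A carrier was counted where its P15 to P6 ratio was at least 1.5, or at most the inverse of 1.5, with an interval that left out 1. By this rule *Slc6a6* was higher, 1 of 9, where 18.0% of the 10972 genes with at least 50 UMIs were higher, and *Slc38a2*, *Slc1a4* and *Slc1a5* were lower, 3 of 9, where 11.2% of those genes were lower. The other 5 carriers were within the limit. The median log2 ratio of the 9 was −0.14, against 0.12 over all genes compared. With TMM scaling the median of all genes moved by −0.13 and with totals free of mitochondrial and ribosomal protein UMIs by −0.14, and the share of higher among all counted genes went from 61.6% to 47.0% and 45.3%. Both of those scalings counted 4 carriers as lower, the fourth being *Slc7a1*, and left the higher one at 1.

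**Figure D1:**
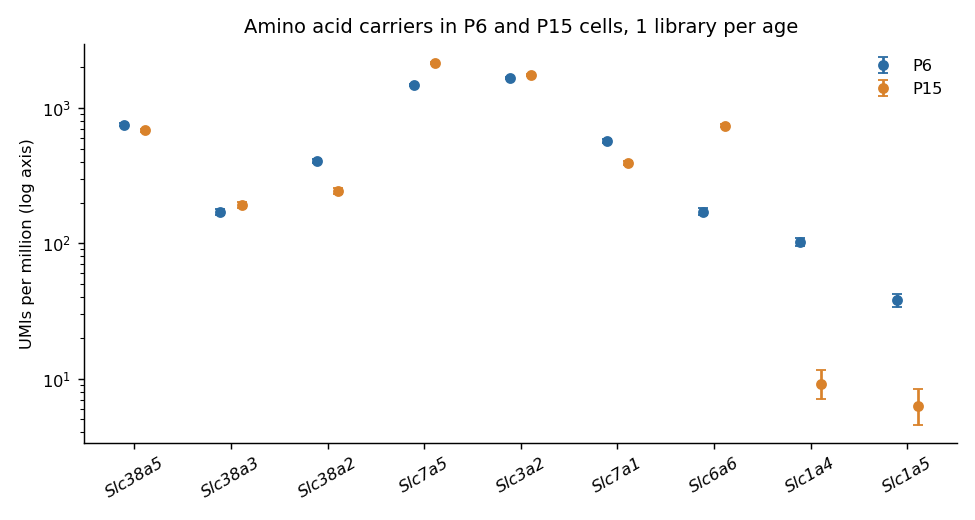
Level of each carrier in passing cells, in CPM on a log axis, with 1 point per library (P6 in blue, P15 in orange) and exact Poisson 95% intervals. *Slc6a6* goes from 171 to 738 CPM, *Slc1a4* from 102 to 9.09 and *Slc1a5* from 37.9 to 6.24, while the points of *Slc3a2* and *Slc38a3* are close together.

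The exchanger LAT1 and its heavy chain were found in nearly every cell at both ages. *Slc7a5* (chr8:121881150-121907694, minus strand) stood at 1479.5 CPM (1452 to 1507) at P6 and 2150.1 CPM (2117 to 2184) at P15, a ratio of 1.45 (1.42 to 1.49), just inside the limit. *Slc3a2* (chr19:8706882-8723369, minus strand) stood at 1671 CPM (1642 to 1700.5) and 1752 CPM (1722 to 1783), a ratio of 1.05 (1.02 to 1.07). The light chain was thus higher at P15, though within the limit, and the heavy chain was nearly level. Of the 10972 genes compared, 2310 had a larger ratio than *Slc7a5*, and its ratio ran from 1.32 to 1.57 over 12 alternatives. The sign of the small *Slc3a2* difference turned under TMM scaling, with a ratio of 0.959. *Slc7a5* lies over the gene *Gm20388* on the other strand, and whether the counting used strand is not given in the sources used here.

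Most cells held both the light and the heavy chain. With each cell thinned to 3000 UMIs, which kept 1245 P6 and 1163 P15 cells, both were found in 87.7% of P6 cells and 94.2% of P15 cells. *Slc7a5* was found in 91.2% and 96.2% of these cells and *Slc3a2* in 93.4% and 97.2%. Single shares this high leave little room for the joint share to differ. Across cells, log-normalised levels of the pair had a Pearson r of 0.57 at P6 (1424 cells) and 0.32 at P15 (1644 cells), points that share a library and a total. There were 0.885 *Slc7a5* UMIs per *Slc3a2* UMI at P6 and 1.23 at P15, a number that also depends on how well each transcript is captured.

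Arginine carrier levels were lower at P15. *Slc7a1* (chr5:148327410-148399904, minus strand) stood at 572 CPM (555 to 589) at P6 and 394 CPM (380 to 408) at P15, a ratio of 0.689 (0.657 to 0.722). It was found in 78.6% of P6 and 63.5% of P15 cells, and in 67.3% and 55.5% after thinning. The order was the same with both counts of cells, and the ratio reached the 1.5-fold limit only with the TMM and the mitochondrial and ribosomal protein free scalings, at 0.630 and 0.624.

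The 3 SLC38 carriers differed from each other. *Slc38a2* (chr15:96687392-96699730, minus strand) stood at 406 CPM (392 to 421) at P6 and 243 CPM (232 to 255) at P15, a ratio of 0.599 (0.564 to 0.635), and was found in 77.5% and 56.1% of cells. *Slc38a3* (chr9:107650634-107669530, minus strand) stood at 170.3 CPM (161 to 179.8) and 191 CPM (181 to 201), a ratio of 1.12 (1.04 to 1.21), in 52.9% and 51.5% of cells. *Slc38a5* (chrX:8271133-8280179, plus strand) stood at 752 CPM (733 to 772) and 684 CPM (665 to 703), a ratio of 0.910 (0.876 to 0.945), in 71.4% and 74.5% of cells. SNAT2 transcripts were thus lower at P15, whereas those of SNAT3 and SNAT5 differed by less than 1.5-fold. The direction of *Slc38a5* turned when every barcode was used (1.08) or when clusters were given their P6 shares (1.03), and that of *Slc38a3* when Proliferative and Primitive cells were left out (0.965).

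Carriers of the SLC1 family were the furthest below 1 among the 9. *Slc1a4* (chr11:20302180-20332713, minus strand) stood at 102 CPM (94.97 to 109) at P6 and 9.09 CPM (7.05 to 11.5) at P15, from 780 and 67 UMIs, which is 11.2-fold lower (8.74 to 14.6). *Slc1a5* (chr7:16781340-16798274, plus strand) stood at 37.9 CPM (33.7 to 42.5) and 6.24 CPM (4.57 to 8.32), from 290 and 46 UMIs, which is 6.08-fold lower (4.44 to 8.48). Of the 10972 genes compared, 52 had a smaller ratio than *Slc1a4* and 156 a smaller ratio than *Slc1a5*. The share of cells with a *Slc1a4* UMI went from 36.6% to 3.89%, and from 23.3% to 2.67% after thinning, and for *Slc1a5* from 17.1% to 2.62%, and from 9.80% to 1.29% after thinning.

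The taurine carrier stood at the other end. *Slc6a6* (chr6:91684053-91759066, plus strand) was at 171 CPM (162 to 181) at P6 and 738 CPM (719 to 758) at P15, a ratio of 4.31 (4.05 to 4.58), and only 146 of the 10972 genes had a larger one. It was found in 31.3% of P6 and 64.0% of P15 cells, and in 23.3% and 59.5% after thinning. The gene overlaps *4930517G19Rik* and *Gm44981* on the other strand and *Gm45828* on its own, and UMIs of these cannot be told apart from its own where the counting did not separate them.

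**Figure D2:**
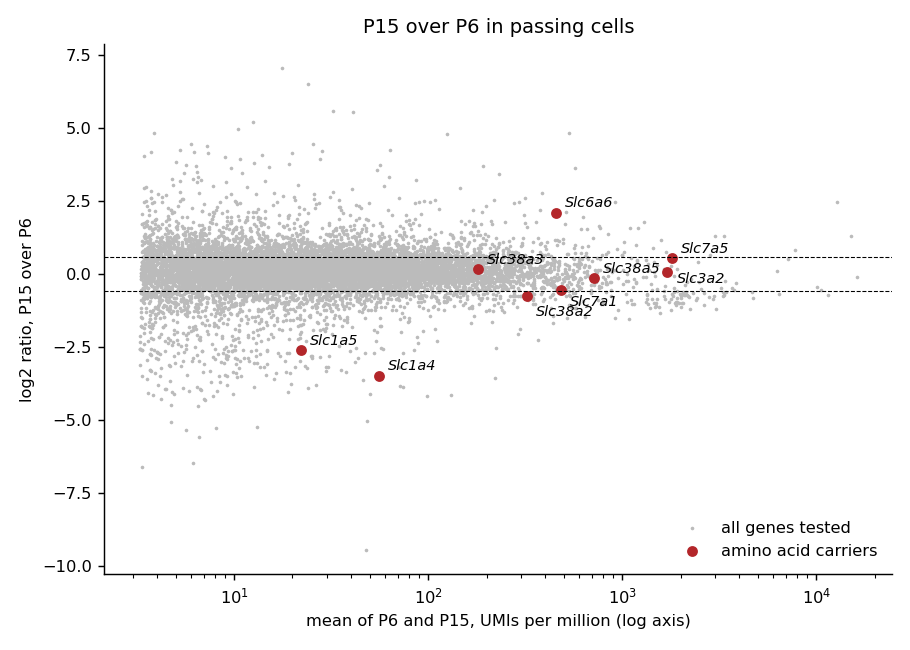
Each grey point is 1 of the 10972 genes with at least 50 UMIs over both libraries, placed by its mean level (CPM, log axis) and its log2 ratio of P15 over P6; red points are the 9 carriers and dashed lines mark 1.5-fold. *Slc6a6* lies above the upper line, and *Slc38a2*, *Slc1a5* and *Slc1a4* lie below the lower one.

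Immediate early genes and markers of other cells moved with age as well, as given above. The carriers were therefore also compared without cells that held some of these genes. Without cells that had a UMI of *Fos*, *Fosb* or *Egr1*, which left 1109 P6 and 735 P15 cells, ratios were 4.25 for *Slc6a6*, 0.513 for *Slc38a2*, 0.105 for *Slc1a4* and 0.173 for *Slc1a5*. Without cells that had any UMI of the pericyte, neural, glial, red blood cell or immune markers (*Glul*, *Clu* and *Slc1a3* not counted), which left 1091 and 397 cells, they were 4.70, 0.626, 0.0881 and 0.138. All 4 carriers stayed on their side of the 1.5-fold limit in both selections. The immediate early genes *Jun*, *Junb*, *Atf3*, *Ier2* and *Dusp1* were not used to select cells. Of these, *Junb* was found in 47.3% of P6 and 73.1% of P15 passing cells. Leaving out cells does not remove free RNA or a response to dissociation in the cells kept, and the part of either was not tested. In these sums fewer cells of a type and less RNA per cell cannot be told apart, and the ages are therefore compared within clusters further on.

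UMIs per cell show how the levels were made up. At 3000 UMIs per cell, 4 or more *Slc7a5* UMIs were found in 56.9% of P6 and 77.1% of P15 cells, and 4 or more *Slc6a6* UMIs in 3.86% and 24.6%. For *Slc38a5* the share of cells with none was 33.9% and 28.5%, and the share with 4 or more was 26.5% and 20.2%. More P15 cells thus held some *Slc38a5* and fewer held much of it. No P15 cell had more than 1 *Slc1a4* UMI after thinning, whereas 2 to 3 were found in 5.22% of P6 cells.

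**Figure D3:**
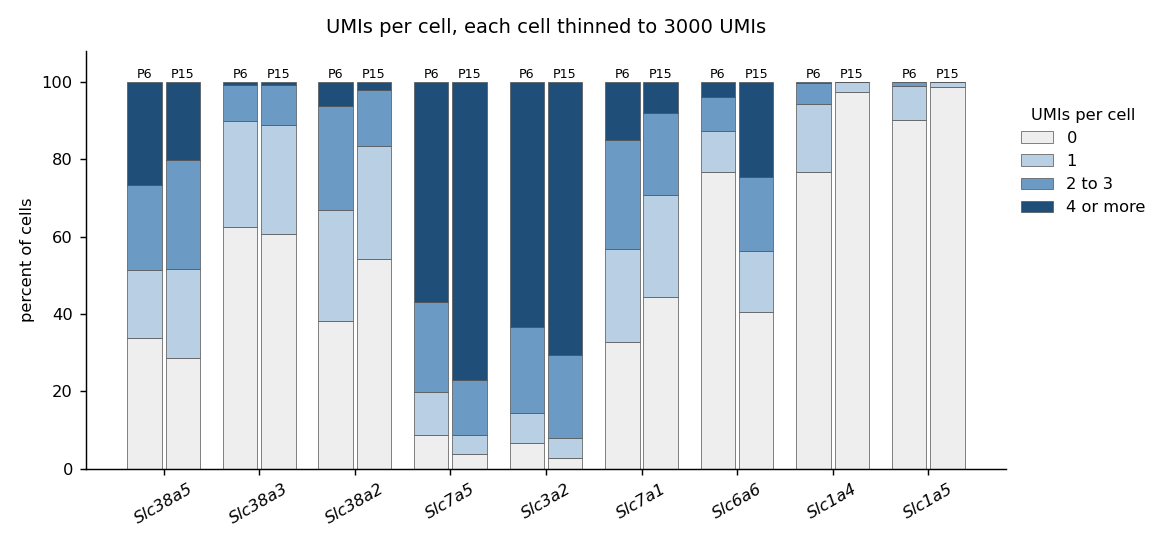
Percent of passing cells with 0, 1, 2 to 3, or 4 or more UMIs of each carrier, with every cell thinned to 3000 UMIs (1245 P6 cells, left bar; 1163 P15 cells, right bar). The darkest block grows from 3.86% to 24.6% for *Slc6a6* and from 56.9% to 77.1% for *Slc7a5*, and cells with *Slc1a4* shrink to 2.67% at P15.

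Free RNA also gives UMIs, so the shares were set beside those in barcodes that the study removed for *Neurod1*, a gene of photoreceptor precursors. In the 98 such P6 barcodes (median of 5567 UMIs against 4985), the endothelial genes *Cldn5* and *Pecam1* stood at 0.311 and 0.345 of their level in passing cells. *Slc38a5* stood there at 0.291, *Slc1a4* at 0.329, *Slc7a5* at 0.341, *Slc3a2* at 0.359 and *Slc7a1* at 0.385 of their passing level, *Slc38a3* at 0.503, *Slc38a2* at 0.567 and *Slc1a5* at 0.641. *Slc38a5* was found in 42.9% of these barcodes, *Slc1a4* in 22.4%, *Slc7a5* in 58.2%, *Slc3a2* in 79.6%, *Slc7a1* in 48.0%, *Slc38a3* in 39.8% and *Slc38a2* in 71.4%, in each case below the share in passing cells, although for *Slc38a2* the interval (61.4% to 80.1%) took in the 77.5% of passing cells. *Slc1a5* was found in 16.3% and *Slc6a6* in 33.7%, close to or above the 17.1% and 31.3% of passing cells, so for these genes the share over all P6 cells is not read as expression and the differences between clusters below carry the description. At P15, in 17 such barcodes (median of 6377 UMIs against 4214), the shares with *Slc6a6* (94.1%), *Slc38a3* (58.8%), *Slc38a2* (58.8%), *Slc7a1* (64.7%) and *Slc1a4* (5.88%) were at or above those of passing cells, so these P15 shares are not read as expression either. These barcodes were not free of endothelial RNA, with *Cldn5* found in 87.8% of them at P6 and 82.4% at P15.

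Most carriers were lower in Arterial than in Cap-Venous cells at P6. All genes took part in the clustering, so levels by cluster are a description. Of the 9 carriers, 7 were lower in P6 Arterial cells than in Cap-Venous cells by the same rule, where 8.17% of 6448 genes were lower, and 1, *Slc6a6*, was higher, where 12.0% were. The median log2 ratio of the 9 was −2.31, against 0.06 over those genes. The Arterial cluster held 40 P6 cells and 197565 UMIs, the Cap-Venous cluster 414 cells and 2661117 UMIs.

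In artery cells at P6 both chains of LAT1 were low. *Slc7a5* was at 65.8 CPM (35.04 to 113), from 13 UMIs, against 1705 CPM (1656 to 1756) in Cap-Venous cells, 25.9-fold lower (15.1 to 48.7), and *Slc3a2* was at 399.9 CPM (317 to 498) against 1966 CPM (1914 to 2020.5), 4.92-fold lower (3.94 to 6.22). There were 0.165 *Slc7a5* UMIs per *Slc3a2* UMI in Arterial cells (0.0839 to 0.298), and between 0.822 and 1.16 in the other 8 P6 clusters. The heavy chain, which other light chains also use, was thus less reduced in Arterial cells than the LAT1 light chain.

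Most of the other carriers were low in Arterial cells too. *Slc38a5* was at 45.6 CPM (20.8 to 86.5) in Arterial and 1053 CPM (1014 to 1093) in Cap-Venous cells, 23.1-fold lower (12.2 to 50.6). *Slc38a3* was at 15.2 CPM (3.13 to 44.4), from 3 UMIs, against 183 CPM, a ratio of 0.0828 (0.0170 to 0.243), and *Slc7a1* at 132 CPM against 653 CPM, 4.96-fold lower (3.38 to 7.62). *Slc1a4* was at 45.6 against 137 CPM, 3.01-fold lower (1.57 to 6.64). *Slc1a5* had no UMI in Arterial cells, where a count of 0 allows up to 15.2 CPM, against 36.5 CPM in Cap-Venous cells, so it was at least 2.40-fold lower.

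*Slc38a2* was the one of the SLC38 carriers that was not counted as lower in Arterial or Cap-Arterial cells. It stood at 466 CPM (375 to 571) in Arterial, 660.3 CPM (606 to 718) in Cap-Arterial, 660.0 CPM (592 to 733) in Capillary and 371 CPM (348 to 394) in Cap-Venous cells at P6. Its Cap-Arterial to Cap-Venous ratio was 1.78 (1.60 to 1.98) at P6 and 2.25 (1.76 to 2.86) at P15. Its lowest P6 level, 133 CPM, was in Primitive cells, and the levels of the first pair in order, Cap-Arterial and Capillary, did not differ beyond counting error.

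At P6 the taurine carrier was highest in the arterial clusters. *Slc6a6* stood at 891 CPM (764 to 1033) in Arterial and 817 CPM (757 to 881) in Cap-Arterial cells at P6, a pair that did not differ beyond counting error (ratio of 1.09, 0.919 to 1.29). The next level, in Capillary cells, was 134 CPM (104 to 169), 6.10-fold lower (4.77 to 7.92), and Tip and Primitive cells were at 21.4 and 17.0 CPM. Arterial and Cap-Arterial cells gave 58.6% of all *Slc6a6* UMIs of labelled P6 cells (56.0% to 61.1%), and 10.7% of the UMIs of all genes. A *Slc6a6* UMI was found in 92.5% of Arterial and 87.7% of Cap-Arterial cells, against 9.03% of Primitive cells.

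The venous side of the capillary bed was set against the arterial side by Cap-Arterial and Cap-Venous cells. At P6, 2 of 9 carriers (*Slc6a6*, *Slc38a2*) were higher in Cap-Arterial cells, where 9.90% of 7100 genes were, and 4 (*Slc38a5*, *Slc38a3*, *Slc1a4*, *Slc1a5*) were lower, where 5.49% were. *Slc6a6* had a ratio of 7.96 (6.91 to 9.20), *Slc38a5* of 0.427 (0.383 to 0.476), *Slc38a3* of 0.548 (0.429 to 0.692), *Slc1a4* of 0.532 (0.399 to 0.699) and *Slc1a5* of 0.295 (0.131 to 0.584). *Slc7a5* (0.717), *Slc3a2* (0.735) and *Slc7a1* (0.789) were below 1 but within the limit. LAT1 transcripts were thus low in the Arterial cluster and much less so in its capillary neighbour.

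**Figure D4:**
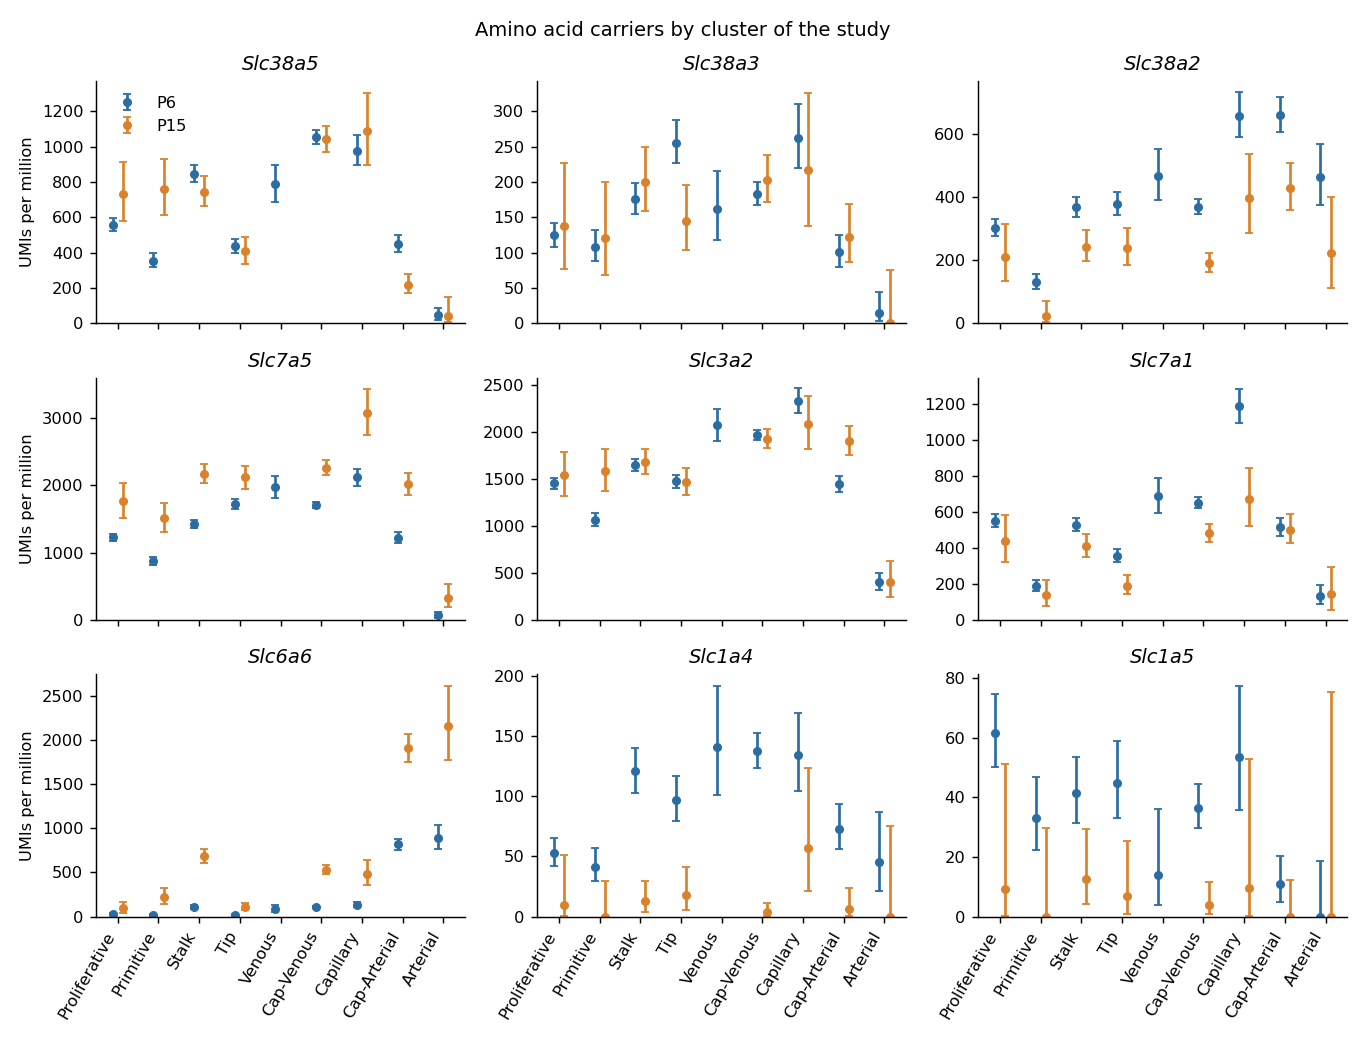
Level of each carrier in CPM by cluster of the study, for labelled P6 (blue) and P15 (orange) cells, with exact Poisson 95% intervals; clusters under 10 cells are not drawn, which leaves out P15 Venous cells. In the Arterial cluster at P6 *Slc7a5* is at 65.8 CPM and *Slc38a5* at 45.6 while *Slc38a2* holds 466 CPM, and the *Slc6a6* panel climbs from 17.0 CPM in Primitive to 891 CPM in Arterial cells.

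At P15 the arterial pattern was read from fewer cells, 11 Arterial, 68 Cap-Arterial and 134 Cap-Venous. Of the 7 carriers with at least 50 UMIs in the cells compared, 1 was higher and 5 were lower in Arterial than in Cap-Venous cells, where 7.78% and 6.64% of 2968 genes were. *Slc6a6* stood at 2160.2 CPM in Arterial, 1903 CPM in Cap-Arterial and 530.4 CPM in Cap-Venous cells. *Slc7a5* stood at 326, 2015 and 2258 CPM, and *Slc38a5* at 40.8, 218 and 1041 CPM. The contrast of Cap-Arterial with Cap-Venous cells was 3.59 (3.15 to 4.08) for *Slc6a6* and 0.209 (0.160 to 0.269) for *Slc38a5*, and 2 carriers were higher and 2 lower, where 6.83% and 5.73% of 3720 genes were.

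Capillary cells, whose marker *Mfsd2a* carries a lysolipid across the barrier, had the highest P6 level of 4 carriers. These were *Slc7a5* (2118 CPM, 1995 to 2246), *Slc3a2* (2334 CPM, 2205 to 2469), *Slc7a1* (1189.8 CPM, 1098 to 1287) and *Slc38a3* (262 CPM, 220.0 to 309.8). *Slc7a1* was 1.73-fold above the next cluster, Venous (1.47 to 2.04), whereas *Slc7a5* did not differ from Venous beyond counting error (1.08, 0.971 to 1.19), nor *Slc38a3* from Tip cells (1.03, 0.830 to 1.26). Against Cap-Venous cells, *Slc7a1* was 1.82-fold (1.66 to 1.998) and *Slc38a2* 1.78-fold higher (1.57 to 2.02), 2 of 9 where 14.6% of 6855 genes were, and none was lower, where 5.02% were. Capillary cells had a median of 3204 UMIs at P6, the lowest of the 9 clusters, and its part in these levels was not tested.

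In the growing front and in dividing cells, the carriers split again. Tip cells, which lead the sprouts, had *Slc38a3* at 256 CPM and *Slc7a5* at 1715 CPM, and *Slc6a6* at 21.4 CPM, and held 1.16 *Slc7a5* UMIs per *Slc3a2* UMI (1.09 to 1.24), the highest of the P6 clusters. Proliferative cells had the highest *Slc1a5* level, 61.5 CPM (50.2 to 74.6), but it did not differ beyond counting error from Capillary cells at 53.6 CPM (ratio of 1.15, 0.750 to 1.81). A *Slc1a5* UMI was found in 39.9% of Proliferative and 14.8% of Capillary cells, with a median of 7953.5 and 3204 UMIs per cell. After thinning to 3000 UMIs these shares were 19.0% and 15.4%. *Slc1a5* was also found in Tip (44.7 CPM), Stalk (41.3 CPM) and Cap-Venous cells (36.5 CPM), and at 10.8 CPM in Cap-Arterial cells. In Primitive cells 8 of 9 carriers were lower than in the other labelled P6 cells, where 30.1% of 9834 genes were.

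*Slc1a4* was level over the venous and capillary clusters of P6. It stood at 141 CPM in Venous, 137 in Cap-Venous, 134 in Capillary and 120.4 in Stalk cells, neighbours that did not differ beyond counting error. Its lowest levels were in Proliferative (52.6 CPM), Arterial (45.6) and Primitive cells (41.4). No neighbouring pair in its order of 9 clusters differed beyond counting error, but clusters further apart did. Its highest level was 3.40 times its lowest, and it was counted as lower in Cap-Arterial and in Arterial than in Cap-Venous cells, as given above.

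Within clusters, the age differences of 6 carriers kept 1 direction. *Slc6a6* was above 1, and past the 1.5-fold limit, in each of the 7 clusters with at least 50 UMIs, from 2.33 (2.08 to 2.61) in Cap-Arterial to 6.37 (5.20 to 7.83) in Stalk cells. Its level was thus higher at P15 also outside the arterial clusters, with Cap-Venous cells going from 103 to 530.4 CPM and Stalk cells from 107 to 681 CPM. In the barcodes removed for *Neurod1*, *Slc6a6* stood at 75.2 CPM at P6 and 1188 CPM at P15. The P15 level in those barcodes was above the Cap-Venous and Stalk levels, and the part of free RNA in the cluster levels was not tested. The share of labelled *Slc6a6* UMIs from arterial clusters was 46.2% at P15 (43.6% to 48.8%), while those clusters gave 16.4% of all UMIs. With the clusters held at their P6 shares, the ratio was 3.52.

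Background shares of genes counted as higher were 7.45% in Proliferative, 14.9% in Primitive, 15.7% in Stalk, 12.3% in Tip and 11.1% in Capillary cells, and 14.9%, 11.4% and 10.8% in Cap-Venous, Cap-Arterial and Arterial cells. For genes counted as lower they were 5.41%, 12.2%, 10.3%, 8.67%, 12.4%, 9.43%, 9.34% and 11.7% in the same order.

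The lower level of 3 carriers at P15 was also found in single clusters. *Slc38a2* was below 1 in all 8 clusters, from 0.182 in Primitive cells (3 P15 UMIs, 0.0371 to 0.546) to 0.693 in Proliferative cells (0.436 to 1.05), and past the limit in 7. With predicted P15 labels the Primitive ratio was 0.396 (0.245 to 0.616), Proliferative cells passed the limit (0.606) and Arterial cells no longer did (0.726, 0.516 to 1.01). *Slc1a4* was past the limit in each of the 6 clusters with the minimum of UMIs. Its ratio ran from 0.0286 in Cap-Venous cells (3 P15 UMIs, 0.00588 to 0.0844) to 0.424 in Capillary cells (6 P15 UMIs, 0.150 to 0.970). *Slc1a5* was past the limit in each of the 4 clusters with the minimum. Its ratio ran from 0.108 in Cap-Venous cells (3 P15 UMIs, 0.0218 to 0.324) to 0.306 in Stalk cells (5 P15 UMIs, 0.0959 to 0.757). The minimum was taken over both ages together, and P6 gave most of these UMIs. In Proliferative cells both genes had 1 P15 UMI, with intervals up to 0.997 and 0.849. So few P15 UMIs leave the size of these ratios uncertain. In Cap-Venous cells, *Slc38a2*, *Slc1a4* and *Slc1a5* were the 3 carriers counted as lower, where 9.43% of 7040 genes were. *Slc6a6* was the 1 counted as higher, where 14.9% were. *Slc7a1* was below 1 in all 7 clusters with the minimum, from 0.534 in Tip (0.394 to 0.711) to 0.974 in Cap-Arterial cells (0.804 to 1.17). It was past the limit in 2 of them, Tip and Capillary cells (0.564). In Arterial cells, under the minimum, it was at 1.08.

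LAT1 was above 1 in each of 7 clusters. *Slc7a5* ratios ran from 1.23 (1.12 to 1.35) in Tip cells to 1.72 (1.46 to 2.02) in Primitive cells and were past the limit in 3, Primitive, Stalk (1.53) and Cap-Arterial cells (1.65, 1.49 to 1.82). With predicted P15 labels *Slc7a5* stayed above 1 in all 7, but Stalk (1.46) and Cap-Arterial cells (1.48) came within the limit and Capillary cells (1.62) passed it. The prediction was right for 52.4% of labelled P15 Capillary cells. *Slc3a2* ratios ran from 0.896 (0.772 to 1.03) in Capillary to 1.48 (1.27 to 1.73) in Primitive cells, none past the limit, although Primitive cells passed it with predicted labels (1.67). The number of *Slc7a5* UMIs per *Slc3a2* UMI went from 0.867 (0.833 to 0.903) to 1.17 (1.09 to 1.26) in Cap-Venous cells and from 0.907 (0.836 to 0.985) to 1.47 (1.24 to 1.75) in Capillary cells.

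*Slc38a5* differed in direction between clusters. It was level in Cap-Venous cells (1053 and 1041 CPM, ratio of 0.989, 0.913 to 1.07) and in Capillary cells (976 and 1088 CPM, 1.11, 0.903 to 1.37). It was lower in Cap-Arterial cells (450 and 218 CPM, 0.485, 0.367 to 0.631) and higher in Primitive cells (355 and 759 CPM, 2.14, 1.68 to 2.70). *Slc38a3* was past the limit in Tip cells, where it was lower (256 and 144 CPM, 0.565, 0.397 to 0.785). With predicted P15 labels, which raised the P15 Tip cells from 46 to 179, that ratio was 0.924 (0.775 to 1.10) and within the limit. The prediction was right for 73.9% of labelled P15 Tip cells.

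**Figure D5:**
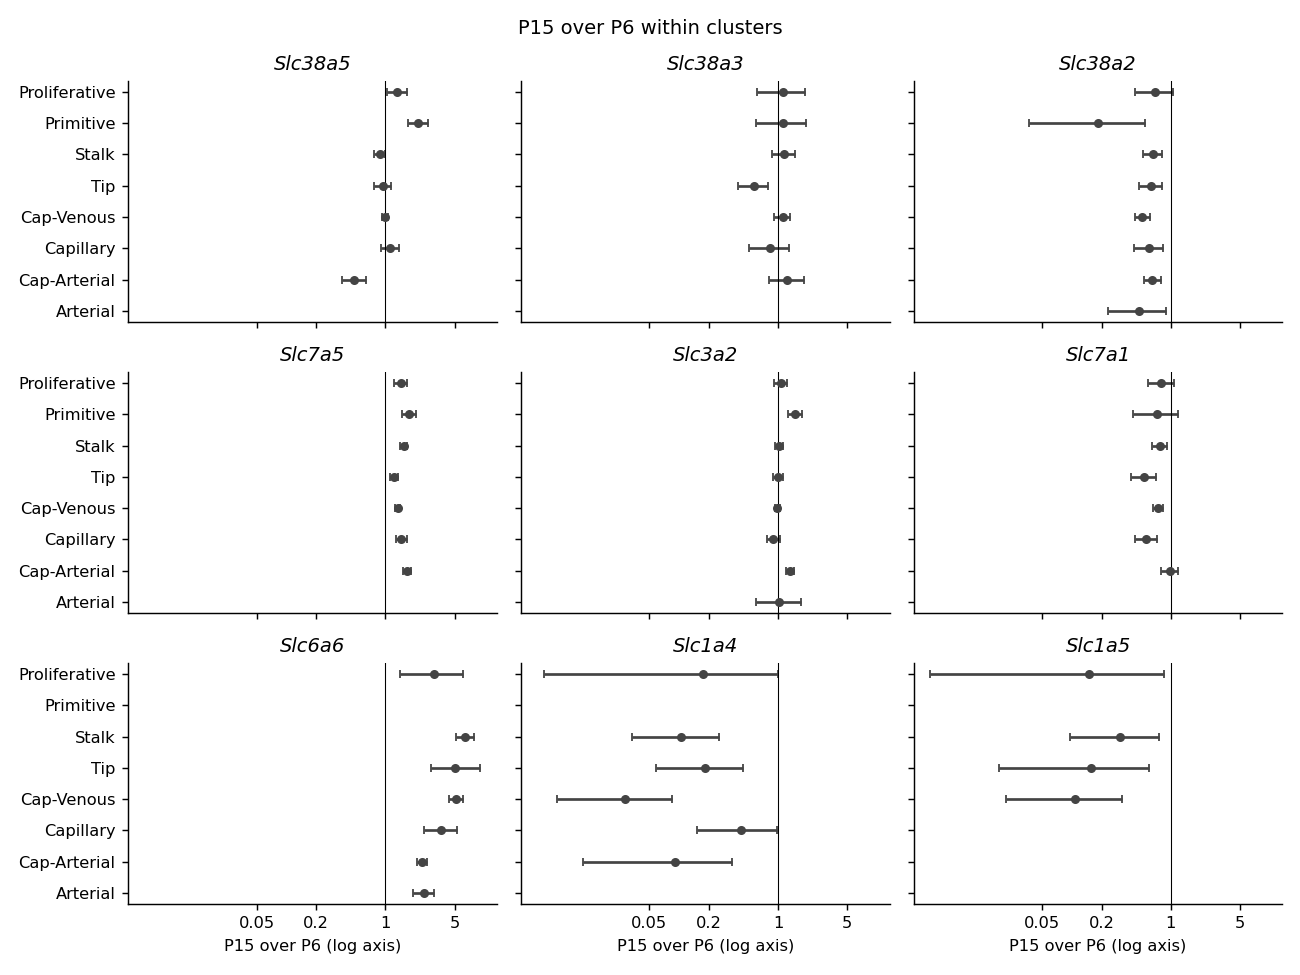
Ratio of P15 over P6 (log axis) of each carrier within each cluster with at least 10 labelled cells at both ages, with conditional binomial 95% intervals and a line at 1; clusters with under 50 UMIs of the gene over both ages have no point. All *Slc6a6* points lie right of 2.33 or at it, all *Slc38a2* points lie left of the line, and *Slc38a5* has 1 point at 0.485 and 1 at 2.14.

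Summed over the 9 carriers, Capillary cells had the highest level and Arterial cells the lowest at P6. The sum was 7860.3 CPM in Capillary, 6384 in Venous, 6208 in Cap-Venous and 2060.1 CPM (1865 to 2270.3) in Arterial cells at P6, and 8087, 7102, 6642 and 3301 CPM in Capillary, Cap-Arterial, Cap-Venous and Arterial cells at P15. They count UMIs and are not per transcript length.

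Genes with the most similar pattern were sought over 15 profiles, the clusters with at least 30 labelled cells at either age, by Pearson r of log2(CPM + 1) with 6595 genes. *Slc3a2* had *Slc7a5* as its nearest gene of all (r of 0.96), followed by *Adamtsl2* (0.95) and *Mfsd2a* (0.94), and *Slc7a5* had *Slco2b1* (0.98), an organic anion carrier. *Slc38a5* had *Aplnr* (0.91), the apelin receptor, *Net1* and *Gatm*, and *Slc6a6* had *Srgn* (0.97), *Htra1* (0.97) and *Dhrs3* (0.96). The profiles share libraries and cells were clustered on these genes, so no p-value is given. Among the carriers, *Slc38a3* ran with *Slc7a5* (0.94) and *Slc3a2* (0.92). All 3 had their lowest level of the 15 profiles in P6 Arterial cells (40 cells). There *Slc38a3* stood at 15.2 CPM (3 UMIs) and *Slc7a5* at 65.8 CPM (13 UMIs). Their next lowest levels were 100 CPM in P6 Cap-Arterial and 877 CPM in P6 Primitive cells. How far each r rests on the Arterial profile was not tested.

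Other amino acid carriers were taken as a list of 33 genes, of which 26 had a row in both libraries and 15 had at least 50 UMIs. Of these 15, 4 were higher and 7 lower at P15, against 18.0% higher and 11.2% lower of all 10972 genes, with a median log2 ratio of −0.18 against 0.12. The lowest ratios were those of *Slc43a1*, which carries large neutral amino acids (LAT3, 19.9 to 2.71 CPM, 0.137, 0.0811 to 0.218), *Slc38a1* (34.5 to 10.6 CPM, 0.307, 0.235 to 0.396) and *Slc7a8*, which encodes LAT2 (27.1 to 8.82 CPM, 0.326, 0.243 to 0.432). The highest were those of *Slc1a1*, a glutamate carrier (5.10 to 19.8 CPM, 3.88, 2.71 to 5.68), *Slc38a6* (4.18 to 9.50 CPM, 2.27, 1.47 to 3.56) and *Slc36a1* (4.45 to 8.41 CPM, 1.89, 1.23 to 2.97).

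ATF4 is a transcription factor that raises amino acid carriers and synthesis enzymes when amino acids are scarce, and *Atf4* with known targets formed the other list of 29. Of 25 with at least 50 UMIs, 6 were higher and 6 lower, against the same 18.0% and 11.2% of all genes, with a median log2 ratio of 0.01 against 0.12. The lowest were *Phgdh* (23.5 to 2.85 CPM, 0.121, 0.0731 to 0.191), which starts serine synthesis, *Stc2* (14.1 to 3.26 CPM, 0.231, 0.142 to 0.361) and *Psat1* (33.6 to 9.90 CPM, 0.295, 0.224 to 0.384), the next enzyme of that route. The highest were *Nupr1* (1.57 to 9.23 CPM, from 12 and 68 UMIs, 5.88, 3.16 to 11.9), *Ddit4* (87.0 to 286 CPM, 3.29, 3.01 to 3.59), a brake on mTORC1 that glucocorticoids also raise, and *Trib3* (4.18 to 8.55 CPM, 2.04, 1.31 to 3.23). *Atf4* itself was within the limit (78.6 to 97.0 CPM, 1.23, 1.11 to 1.38).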

How the data were processed

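Retinal endothelial cells of P6 and P15 mice were measured in 1 droplet library per age. The authors deposited UMI counts per gene and barcode without normalization (1984 barcodes and 13958124 UMIs at P6, 2141 and 11589641 at P15), and the submitters' processing notes name Seurat 3.0 and mm10; the aligner of these counts is not given in the sources used here. Ensembl identifiers were matched to symbols, and rows of 1 symbol were added. Passing cells had 200 to 3500 genes, at most 5% mitochondrial UMIs (this reading of the limit is not certain) and none of the genes *Cd63*, *Hbb-bt* and *Neurod1*; no doublet caller was run. Cluster names came from the source data of the study, and only the first 438 P15 names were used here. UMIs were summed, scaled to 1000000 per library or cluster (CPM) and given exact Poisson, conditional binomial (ratios) or Clopper-Pearson (shares) intervals, tested on simulated data. A count of 0 was bounded with 3 counts. Gene positions are from GENCODE M21 (GRCm38). The members and lists were chosen with earlier results of these data known; named genes were the members, the 3 largest and 3 smallest ratios of each other list, the 3 most similar genes of each member and markers. Alternatives changed cells, scaling (TMM by edgeR 4.0.16), thinning, composition and predicted labels. Python 3.11.15 with scipy 1.17.1 and R 4.3.3 were used.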

Additional observations from a re-analysis of the deposited data

Results flagged for a closer look

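*Slc38a5* differed in direction between clusters: its P15 to P6 ratio was 2.14 in Primitive cells (155 and 36 cells) and 0.485 in Cap-Arterial cells (162 and 68 cells), with 1 library per age, and the difference between these ratios was not tested. Primitive cells had a median of 5148 UMIs at P6 and 2704 at P15, and the part of depth in the ratio was not tested.

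*Slc6a6* gave a signal in barcodes outside the comparisons: in the 17 P15 barcodes with *Neurod1*, it stood at 1188 CPM (1013 to 1385) against 738 CPM in passing cells, a ratio of 1.61 (1.37 to 1.88), and was found in 94.1% of them. *Cldn5* and *Pecam1* stood there at 0.679 and 0.591 of their passing level. In the 98 P6 barcodes with *Neurod1*, *Slc6a6* was at 0.439 of its passing level.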

How the results depend on the processing

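Called directions of *Slc6a6*, *Slc38a2*, *Slc1a4* and *Slc1a5* between the ages held under all 12 alternatives, with ratios of 3.52 to 5.41, 0.513 to 0.727, 0.0807 to 0.148 and 0.124 to 0.173; with every barcode *Slc38a2* was inside the 1.5-fold limit and *Slc7a5*, at 1.57, outside it, which made 2 carriers higher. Ratios turned for *Slc38a5* with every barcode (1.08), labelled cells only (1.03) and clusters at their P6 shares (1.03), for *Slc3a2* with TMM scaling (0.959) and with totals free of mitochondrial and ribosomal protein genes (0.950), and for *Slc38a3* without Proliferative and Primitive cells (0.965); the cause was not tested. At P15, thinning left 1 carrier lower in Cap-Arterial than in Cap-Venous cells, and predicted labels and equally weighted cells each gave 2 carriers higher in Arterial cells. The P6 cluster with the highest level held for 9 of 9 carriers under thinning and equal weights and for 7 with labelled cells that pass, where *Slc7a5* was highest in Venous and *Slc1a4* in Cap-Venous cells. The cells without *Fos*, *Fosb* or *Egr1*, the 10% mitochondrial limit and, for the P6 clusters, the labelled cells that pass were chosen after seeing the data. Within clusters, predicted P15 labels, also chosen after seeing the data, changed 8 of 61 calls and the direction of none of the 32 called ratios; *Slc6a6* then ran from 2.32 to 6.44 (Proliferative cells 6.44 against 3.07, Tip cells 3.33 against 5.09), *Slc1a4* from 0.0431 to 0.312, *Slc1a5* from 0.119 to 0.329, and *Slc38a5* passed the limit in Proliferative cells (1.58). Predicted labels were right for 78.5% of P6 and 82.2% of P15 cells. They were right less often for Capillary cells (40.9% at P6 and 52.4% at P15) and Tip cells (67.1% and 73.9%). For the 2 labelled P15 Venous cells they were right in 0%. No paired analysis was possible because each age has 1 library. Depth limits *Slc1a4* and *Slc1a5* at P15 most, and the Arterial (11 cells) and Venous (2 cells) clusters there.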
